A study of Mus musculus with 5 samples.

Results

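The cytosolic ribosomal protein genes encode the protein subunits of the ribosomes that translate nuclear mRNAs. They were taken by symbol, as Rpl or Rps followed by a number and an optional paralog suffix, together with Rplp0, Rplp1, Rplp2 and Rpsa, and the rule found 83 of the 32285 genes counted. Of these, 32 encode small subunit proteins and 51 large subunit proteins or their paralogs, and the genes lie on 19 chromosomes. Symbols of the mitochondrial ribosome (Mrpl and Mrps, 78 genes) do not match the rule and served for comparison.

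A ribosome is built from ribosomal RNAs, transcribed by RNA polymerase I and III, and from ribosomal proteins, whose mRNAs are made by RNA polymerase II and translated in the cytoplasm. The small subunit decodes the mRNA and the large subunit joins the amino acids, and each protein is in general needed once per subunit except in the stalk formed by Rplp1 and Rplp2. The mRNAs of vertebrate ribosomal proteins commonly begin with a short run of C and T bases after a leading C, the terminal oligopyrimidine tract, through which mTOR signalling and Larp1 control their translation.

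The cells were 3T3-L1, an established mouse fibroblast line that turns into fat-storing adipocytes in culture, and single cells were sequenced with a 3' assay that counts molecules by unique molecular identifiers (UMIs). Day 0 cells were preadipocytes. Day 3 and day 6 cells had been induced with 1 µM dexamethasone, 0.5 mM IBMX and 10 µg/mL insulin and later held in 2.5 µg/mL insulin, either untreated or with 10 µg/mL P-G3, a polycation of the PAMAM dendrimer type, present from the start of induction. The design asks how the course of differentiation differs with the polymer. All groups came from 1 cell line, and each of the 5 groups was 1 library, so the differences below are between single libraries, without replicates and without tests. Intervals cover counting error only. A gene is called higher or lower where the log2 ratio of CPM + 1 (CPM, the UMIs of a gene scaled to the total of its library) is at least 0.32 in size. Below, 5 values in a row stand for day 0, day 3 untreated, day 3 with P-G3, day 6 untreated and day 6 with P-G3.

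Between 2468 and 3893 cells per library were kept, with 88432894 to 179221992 UMIs. On day 6 only 46.7% of untreated and 62.0% of P-G3 barcodes passed the filter, against 97.4% to 98.9% in the other libraries, and 37.6% and 47.0% of the cells kept there had fewer than 10000 UMIs, against at most 5.65% elsewhere. Any pair of libraries shared 4 to 7 cell barcodes. The labels call the cells fibroblasts. Of 17 adipocyte genes, the 16 that reached 20 CPM were all called higher on day 3 than on day 0 and again on day 6 than on day 3, without polymer. Of 14 preadipocyte and fibroblast genes, 9 of the 13 measured were lower in each of these steps, beside 21.4% and 20.9% of all genes. Postn (1.19) and Pdgfra (1.19) were higher on day 3 than on day 0, and Spp1 (0.69) was higher on day 6 than on day 3. All 15 genes of dividing cells were lower from day 3 to day 6. No marker of macrophages, endothelial, erythroid, epithelial or skeletal muscle cells reached 20 CPM in any library.

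RefSeq promoter windows (GRCm38.p6) were matched for 63 of the 83 members, and the stretch from 50 bases before to 20 bases from the annotated start is shown for 10 of them. The first 4 were among the members with the lowest day 6 level relative to day 3 or day 0, the next 4 were not called lower on day 6 than on day 3, and the last 2 had the highest ratios with P-G3. Capitals mark an unbroken run of at least 7 C or T bases that begins within 10 bases of the annotated start on the gene's strand.
Rps4x: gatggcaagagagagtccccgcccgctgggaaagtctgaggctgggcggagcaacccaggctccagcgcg
Rplp0: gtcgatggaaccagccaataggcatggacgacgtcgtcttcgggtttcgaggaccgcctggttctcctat
Rps9: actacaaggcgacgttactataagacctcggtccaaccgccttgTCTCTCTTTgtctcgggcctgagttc
Rpl12: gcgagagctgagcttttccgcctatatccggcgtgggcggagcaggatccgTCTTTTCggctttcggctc
Rpl38: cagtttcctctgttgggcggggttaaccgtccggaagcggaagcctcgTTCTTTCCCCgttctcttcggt
Rpl35: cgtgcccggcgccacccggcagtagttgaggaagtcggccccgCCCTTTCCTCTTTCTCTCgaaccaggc
Rpl9: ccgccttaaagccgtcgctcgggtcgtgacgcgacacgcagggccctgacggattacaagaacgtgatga
Rpl22l1: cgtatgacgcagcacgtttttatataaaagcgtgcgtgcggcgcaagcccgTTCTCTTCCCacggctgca
Rps6: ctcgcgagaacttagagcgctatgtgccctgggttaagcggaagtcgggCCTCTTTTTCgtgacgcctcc
Rpl10: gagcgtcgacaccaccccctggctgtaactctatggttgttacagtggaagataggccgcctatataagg
The windows are chrX:102189372-102189441 (minus strand), chr5:115559417-115559486 (plus strand), chr7:3703991-3704060 (plus strand), chr2:32961662-32961731 (plus strand), chr11:114668530-114668599 (plus strand), chr2:39005112-39005181 (minus strand), chr5:65391412-65391481 (minus strand), chr3:28805458-28805527 (plus strand), chr4:86857348-86857417 (minus strand) and chrX:74270766-74270835 (plus strand), in the order of the sequences.

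Such a run was present in 27 of 63 members (42.9%), against 16.7% of the 27025 genes with a window. The start sites are annotated ones and were not mapped in these cells. Over the whole 300-base window and both strands, the ETS family motif CCGGAAG was found in 41.3% of members and 9.93% of all genes, the SP family motif GGGCGG in 61.9% and 38.2%, the YY1 motif AAGATGGC in 9.52% and 3.19%, and the TATA box motif TATAAA in 11.1% and 15.7%. Both kinds of start are found among the lowest and the highest members shown above, and a match describes the letters only.

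Members of the family were among the most abundant transcripts of these cells, and 80 of 83 had at least 100 CPM in every library. Since a 3' assay counts a molecule once, no length scaling was applied to CPM. Rpl32, a large subunit protein, had the highest mean level (gene ENSMUSG00000057841, chr6:115805505-115808747, minus strand, GRCm38), at 8822, 8711, 9224, 7414 and 8529.7 CPM. Its counting interval on day 6 untreated, 7396 to 7432 CPM, was narrow, as for all abundant members. Rplp0, Rpl13, Rpsa and Rps20 were among the next in mean level. Rplp0, the base of the large subunit stalk (ENSMUSG00000067274, chr5:115559467-115563727, plus strand), was at 7213, 8723, 9143, 5009 and 5465 CPM. The small subunit protein Rpsa, also known as the laminin receptor, was at 6489, 6741, 7037, 4031 and 4457 CPM. In both Rplp0 and Rpsa the day 6 libraries were the lowest, with or without polymer.

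At the other end, 3 tissue-restricted paralogs were under 1 CPM in every library. Rpl3l, the striated muscle paralog of Rpl3, had 8, 5, 12, 7 and 6 UMIs. Rpl10l, the testis paralog of Rpl10, had 1 UMI on day 6 with P-G3 and none in the other 4 libraries, where a count of 0 allows up to 0.0167 to 0.0339 CPM. Rpl39l had 12 UMIs on day 3 with P-G3, all within 0.0514% of its cells, and none elsewhere. No fold is given for these 3, and the counts below are over the other 80 members.

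Summed over the family, members held 26.9%, 26.9%, 29.3%, 19.7% and 22.7% of all UMIs of the kept cells. The share on day 3 without polymer was close to that of day 0. It was highest on day 3 with P-G3 and lowest on day 6 without polymer. Counting error was below these steps, with an exact interval of 19.71% to 19.73% on day 6 untreated. In the median cell the shares were 26.6%, 27.2%, 30.1%, 19.5% and 23.0%. Cells also spread more on day 6, where the 5th and 95th percentiles were 8.66% and 31.8% without and 12.0% and 36.1% with P-G3, against 21.0% and 32.7% on day 0.

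**Figure D1:**
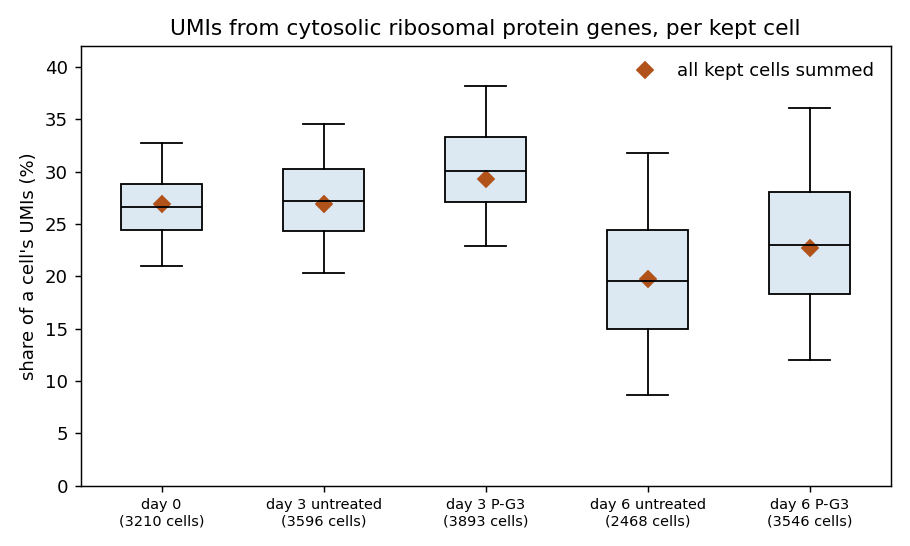
Share of a cell's UMIs that came from cytosolic ribosomal protein genes (%), by library. Boxes show the median and quartiles over kept cells, whiskers the 5th and 95th percentiles, and diamonds the share of all kept cells summed, and the day 6 libraries have the lowest medians (19.5% untreated, 23.0% with P-G3) and the longest boxes.

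In molecules rather than shares, the median cell held 12446.5, 9558, 12391, 6529 and 4294.5 member UMIs. Depth per cell differed as well (median 47503.5, 34720.5, 40306, 34214.5 and 16657.5 UMIs), so the share and not the number is compared between libraries. In a share, fewer ribosomal protein transcripts and more transcripts of other genes cannot be told apart, nor can fewer cells with many of them and less RNA per cell. Without mitochondrially encoded genes, which held a median of 3.37% to 6.29% of UMIs, the median shares were 27.5%, 29.1%, 32.0%, 20.8% and 24.2%, in the same order of libraries.

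Between day 0 and day 3 without polymer, the family as a whole was level: 4 of 80 members were called higher and none lower, against 26.0% and 21.4% of the 5716 genes tested. The median log2 ratio was -0.01 for members and 0.02 for all genes. The 4 were Rpl22l1, Rpl37a, Rpl9 and Rpl7a. Rpl22l1, the paralog of Rpl22 that can take its place in the large subunit (ENSMUSG00000039221, chr3:28805436-28807424, plus strand), was at 593, 909, 925, 821 and 900.4 CPM. Day 0 was the lowest of its 5 libraries, and the log2 ratio of day 3 to day 0 was 0.61. For Rpl9, which sits near the stalk of the large subunit (ENSMUSG00000047215, chr5:65388364-65391444, minus strand), the levels were 2976, 3981, 4265, 4034 and 4961 CPM, again lowest on day 0, with a ratio of 0.42. The ratio was 0.45 for Rpl37a and 0.38 for Rpl7a. Rplp2, a stalk protein, followed at 0.29, short of a call.

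At the low end of that step were Rps12 (-0.30), Rpl30 (-0.29), Rpl22 (-0.23), Rpl35 (-0.23) and Rps27l (-0.22), none of them called. The direction of the counts depended on scaling here. With TMM scaling 2 members were higher and 5 lower, beside 19.4% and 30.0% of all genes, and with median-of-ratios scaling 1 was higher and 11 lower, beside 17.1% and 33.8%. The median of all genes itself was -0.10 and -0.15 under those scalings, beside -0.11 and -0.16 for members.

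From day 3 to day 6 without polymer the family was lower: 56 of 80 members were called lower and none higher, against 20.9% and 30.8% of the 5936 genes tested. The median log2 ratio was -0.47 for members and 0.07 for all genes, and 73 of 80 members were below 0. Of the small subunit members 26 of 32 were lower (median -0.51), and of the large subunit members 30 of 48 (median -0.41). Rps20, a protein of the small subunit head (ENSMUSG00000028234, chr4:3831334-3835665, minus strand), had the lowest ratio, -0.87, with levels of 7374, 6633, 6412, 3634 and 3790.0 CPM. Both day 6 libraries were lower than the day 0 and day 3 libraries. Next were Rps4x, encoded on the X chromosome, at -0.81, and Rplp0 at -0.80. Rps9, which takes part in decoding accuracy, and Rpsa were each at -0.74. The other stalk proteins were at -0.63 (Rplp1) and -0.27 (Rplp2), the latter short of a call.

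Rpl5 and Rpl11, which with 5S rRNA form the particle that can bind Mdm2, were at -0.42 and -0.57. Rps6, the phosphorylation target of S6 kinases, was at -0.42. These 3 proteins with roles in signalling were thus on the same side as most of the family. Members at the upper end of the step were Rpl36 (0.15), Rpl38 (0.14), Rpl7l1 (0.10), Rpl35 (0.04) and Rpl29 (0.04), none of them called. Rpl36 (ENSMUSG00000057863, chr17:56613416-56614243, plus strand) was at 2764, 2663, 3027, 2958 and 3136 CPM and Rpl38, which has been tied to selective translation of Hox mRNAs in the mouse embryo, at 1938, 1782, 1928, 1967 and 1719.5 CPM.

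Set against day 0 in place of day 3, the untreated day 6 library had 53 of 80 members lower and 2 higher, beside 29.1% and 39.8% of 6086 genes tested. The median was -0.46 for members and 0.11 for all genes. Rps20 (-1.02), Rps12 (-0.94), Rpl12 (-0.86) and Rps4x (-0.80) were among the lowest. Rpl22l1 (0.47) and Rpl9 (0.44) were the 2 that were higher, followed by Rpl7l1 (0.21), Rpl29 (0.16) and Rpl36 (0.10). This comparison shares its libraries with the previous pair and is no separate evidence.

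With P-G3 the step from day 3 to day 6 had 45 of 80 members lower and none higher, beside 26.0% and 29.0% of 5145 genes tested, with a median of -0.39 for members and 0.02 for all genes. Rpl12, which forms the stalk base with Rplp0, had the lowest ratio (-0.80), ahead of Rps20 (-0.76), Rplp0 (-0.74), Rps2 (-0.68) and Rps21 (-0.67). Its levels were 5142, 4538, 5400.5, 2830.2 and 3111 CPM, with both day 6 libraries below the other 3. The highest ratios were those of Rpl9 (0.22), Rpl36 (0.05), Rpl29 (0.04), Rpl7l1 (0.03) and Rpl35a (0.01), none of them called.

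**Figure D2:**
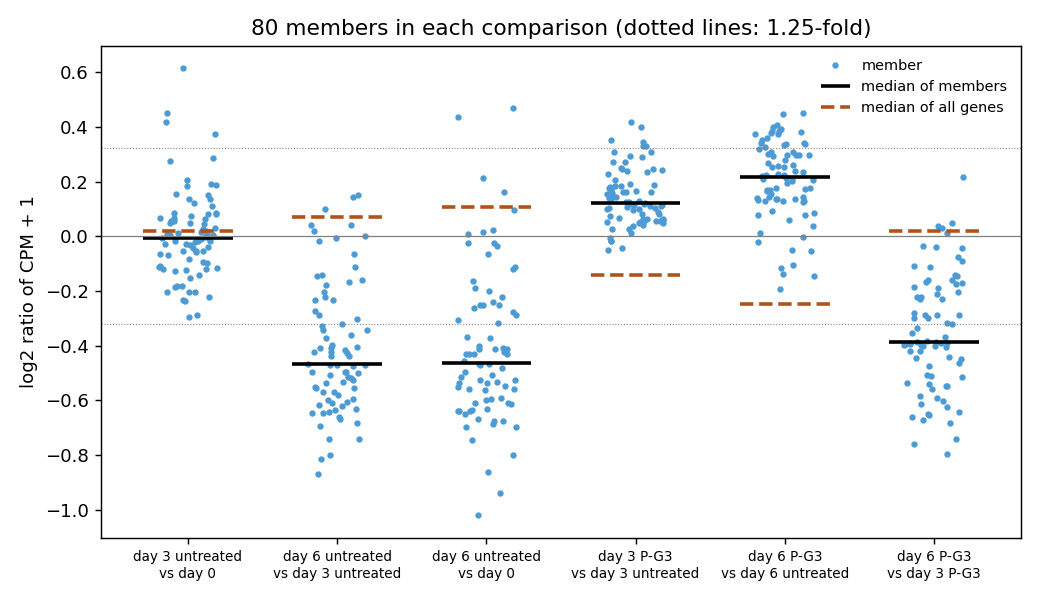
log2 ratio of CPM + 1 for the 80 measured members in each of 6 comparisons, 1 point per gene, with the median of members (black) and of all genes tested (dashed). Points lie mostly below 0 from day 3 to day 6 (medians -0.47 untreated and -0.39 with P-G3) and mostly above 0 with P-G3 (medians 0.12 on day 3 and 0.22 on day 6).

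With P-G3 against untreated on day 3, 6 of 80 members were called higher and none lower, against 6.51% and 33.4% of the 5439 genes tested. The share of members called higher was thus close to the background, while none of them joined the genes called lower. Ratios were above 0 for 75 members, with a median of 0.12, while the median of all genes was -0.14. Rps6 (ENSMUSG00000028495, chr4:86854660-86857412, minus strand) was highest at 0.42, with levels of 1583, 1595, 2130.1, 1190.0 and 1626 CPM. Rpl10, the protein that completes the 60S subunit late in maturation, was at 1683, 1690.2, 2232, 1248 and 1701 CPM, a ratio of 0.40. In both genes each P-G3 library was above the untreated library of its day. The other 4 were Rpl5 (0.35), Rpl29 (0.35), Rpl7l1 (0.33) and Rps26 (0.33). At the low end, Rps20 (-0.05), Rps24 (-0.04), Rpl37a (-0.02), Rps27l (-0.02) and Rpl23 (-0.01) were close to their untreated level.

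On day 6, 19 of 80 members were called higher with P-G3 and none lower, against 9.40% and 44.2% of the 5564 genes tested. The median was 0.22 for members and -0.25 for all genes, and 71 members were above 0. Rps6 (0.45) and Rpl10 (0.45) again led, and Rpl17 (0.40) and Rps26 (0.39) were also among the highest. Of the small subunit members 9 of 32 were higher, and of the large subunit members 10 of 48. The 4 members called higher on both days, Rps6, Rpl10, Rps26 and Rpl29, were 66.7% of those of day 3 and 21.1% of those of day 6. The same overlap was not counted over all genes, so these shares do not set members apart from other genes. With the length trend described below removed, none of the 4 was called on either day. On days 3 and 6 Rps6 was then at 0.26 and 0.23, Rpl10 at 0.25 and 0.23, Rps26 at 0.21 and 0.24 and Rpl29 at 0.19 and 0.13. The lowest ratios belonged to Rpl38 (-0.19), Rpl37a (-0.14), Rps28 (-0.14), Rpl41 (-0.12) and Rps21 (-0.10). Rps28, a small protein of the mRNA exit region, was at 3436, 3458, 3519.7, 3459.6 and 3148 CPM, with no call in any comparison.

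The size of the P-G3 difference depended on scaling, and the direction of the counts did not. With TMM scaling 55 members were higher on day 3 and 72 on day 6, beside 26.9% and 34.8% of all genes. With median-of-ratios scaling 66 and 75 were higher, beside 30.4% and 38.7%. No member was lower, beside 14.2% and 18.0% of all genes with TMM and 12.3% and 14.9% with median-of-ratios scaling. Ratios of single members below 0 on day 6, such as that of Rpl38, are smaller than the shift between scalings. The median of all genes moved from -0.14 to 0.11 and 0.15 on day 3, beside member medians of 0.36 and 0.39. On day 6 it moved from -0.25 to 0.12 and 0.17, beside member medians of 0.55 and 0.60. A scaling shifts all genes of a library alike, so the distance between these medians could hardly change and is no further evidence. Marker lists also differed with P-G3. Of the preadipocyte genes, 9 of 13 were lower and 1 higher on day 3. On day 6, 9 of 12 were lower and 1 higher. Of 16 adipocyte genes 10 were higher and none lower on day 3, and 5 higher and 4 lower on day 6. Of all genes, 33.4% were lower and 6.51% higher on day 3, and 44.2% lower and 9.40% higher on day 6. With the length trend described below removed, 4 adipocyte genes were higher and none lower on day 6, beside 16.5% and 14.4% of all genes. The preadipocyte counts of that day stayed the same. The part of these lists in the member ratios was not tested.

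Length went with these ratios. The principal coding regions of the members ran from 25 to 419 codons (median 152), and across the 80 members the log2 ratio of day 6 to day 3 had a Pearson r of -0.46 with coding length, as a description across genes that share both libraries. Members under 100 codons had a median ratio of -0.17 (10 genes) and those of 200 codons and more -0.55 (23 genes). For P-G3 on day 6 the r was 0.54, with medians of -0.08 and 0.27 for the same classes at total-count scaling. Rpl41, the shortest member, was at 5197, 5296, 5514, 4337 and 4002 CPM and Rpl38, with 70 codons, had the lowest ratio with P-G3. Rplp0, with 317 codons, was at -0.80 over time and 0.13 with P-G3.

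**Figure D3:**
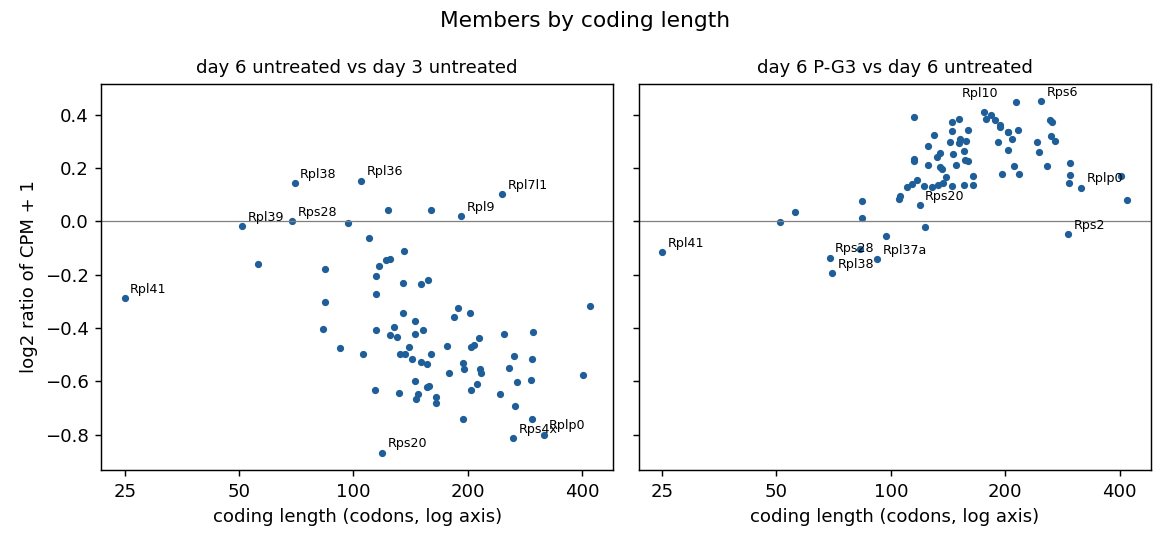
log2 ratio of CPM + 1 against coding length in codons (log axis) for the 80 measured members, from day 3 to day 6 without polymer (left) and with P-G3 against untreated on day 6 (right), at total-count scaling. Members under 100 codons have a median of -0.17 on the left and -0.08 on the right, and members of 200 codons and more lie lower on the left (median -0.55) and higher on the right (0.27).

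A trend with transcript length, which is not the coding length used above, ran through all genes. With P-G3 on day 6 it ran the other way from that across members, with lower ratios in classes of longer transcripts. Subtracting the median of each gene's length class moved Rpl32 (longest transcript 906 bases) from 0.20 to -0.01 and Rps20 (3706 bases) from 0.06 to 0.49. With the class medians subtracted, the member median was -0.50 from day 3 to day 6. Of the members, 60 were lower beside 25.3% of all genes and none higher beside 26.4%. The lower level on day 6 was thus as large without the length trend. For P-G3 on day 3 the median was 0.03, with 3 members higher (3.75%) beside 11.5% of all genes and none lower beside 11.1%. For P-G3 on day 6 it was 0.06, with 7 higher (8.75%) beside 16.5% and 1 lower beside 14.4%. With the length trend removed, the share of members called higher with P-G3 was therefore below that of all genes on both days. The 7 were Rps15a (0.87), Rpl18 (0.68), Rpl9 (0.57), Rpl7l1 (0.49), Rps20 (0.49), Rpl15 (0.42) and Rps3 (0.39), and Rpl38 (-0.35) was lower. Length classes used the longest annotated transcript of a gene, protein-coding where it had any. For Rpl9 that was 2690 bases, against 680 for its principal transcript. Calls of single members can thus depend on which transcript sets the class. A near-identical copy elsewhere in the annotated transcripts, at 97% identity over at least 90 bases, was found for 58 members, with 37 copies for Rpl21, so counts of these members are uncertain where reads fit several copies. Medians from day 3 to day 6 were -0.43 for the 58 members with copies and -0.51 for the 22 without. With P-G3 on day 6 they were 0.23 and 0.18, so both classes lay on the same side.

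Members with and without the promoter run described above had similar medians. From day 3 to day 6 the median ratio was -0.42 for 26 measured members with the C/T run and -0.47 for 34 without, and with P-G3 on day 6 it was 0.21 and 0.20. Rps9 and Rpl12 carry the run and were among the lowest on day 6, and Rpl38 and Rpl35 carry it and were not called lower.

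The balance of the subunits does not depend on library scaling. UMIs of small subunit members were 0.78, 0.75, 0.76, 0.69 and 0.71 of those of large subunit members. The ratio was lowest in the day 6 libraries. In cells with at least 10000 UMIs the median ratio per cell was 0.78, 0.76, 0.76, 0.69 and 0.71, with quartiles of 0.64 and 0.73 on day 6 untreated and 0.75 and 0.81 on day 0.

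The balance within a paralog pair is likewise free of library scaling. Rpl22l1 made up 24.6%, 37.0%, 35.5%, 41.1% and 41.2% of the UMIs of its pair with Rpl22. Its share was lowest on day 0 and highest on day 6, and the exact intervals of the day 6 libraries, 40.9% to 41.4% and 41.0% to 41.4%, overlapped each other and not those of the other libraries. Rpl22 itself was at 1819.9, 1546, 1681, 1175 and 1286 CPM, so the 2 genes were called in opposite directions from day 0 to day 6 untreated (log2 ratios 0.47 and -0.63). Rpl7l1, a nucleolar relative of Rpl7, made up 5.04%, 4.96%, 5.61%, 7.85% and 7.65% of its pair, again with the day 6 libraries highest. Rps27l, a p53-responsive paralog of Rps27, stayed between 31.5% and 35.3% of its pair.

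Across cells, the day 6 libraries were the most spread. Thinned to 5000 UMIs per cell, which left out 10 to 1461 shallower cells per library, the member share had a coefficient of variation of 14.6%, 16.4%, 15.8%, 33.5% and 30.3%, against 2.14% to 2.78% from counting alone. The median Pearson r of a member with the sum of the other members across cells was 0.42, 0.43, 0.46, 0.67 and 0.67 over the 79 members with a mean of at least 1 UMI, as a description of cells of 1 library each. Rps10 was at the top in all but the polymer-treated libraries, with 0.60 on day 0 and 0.85 on day 6 untreated. Rps27l was lowest or next to lowest on days 3 and 6, between -0.10 and 0.13, and Rpl5 was lowest on day 0 (0.05) and next to lowest on day 3 (0.01 untreated and -0.02 with P-G3). Rpl9 had 0.04 with P-G3 on day 3. On day 6 Rpl9 was at 0.19 in untreated and -0.00 in P-G3 cells. The paralog Rpl22l1 followed on day 6, at 0.22 and 0.28.

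Cells were next ranked within each library by the share of UMIs from the 17 adipocyte genes, and the member share of the remaining nuclear UMIs was taken in each quintile, in cells with at least 10000 UMIs. The ranking shares, here and in the rankings below, were of all UMIs of a cell, members included. A cell rich in member UMIs is thus placed lower by construction, and the part of this in the values was not tested. On day 6 untreated the medians from the lowest to the highest quintile were 28.1%, 26.2%, 21.5%, 19.8% and 17.4%. With P-G3 on day 6 they were 33.5%, 28.2%, 24.9%, 23.3% and 20.3%. The order was the same in both libraries, and at each rank the P-G3 library was above the untreated one. On day 3 the medians ran from 29.6% to 26.6% without polymer, with 30.4% in the second-lowest quintile, and from 34.9% to 28.6% with P-G3. Over all kept cells of day 6 the end quintiles were at 27.5% and 18.1% untreated and 32.5% and 21.0% with P-G3.

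**Figure D4:**
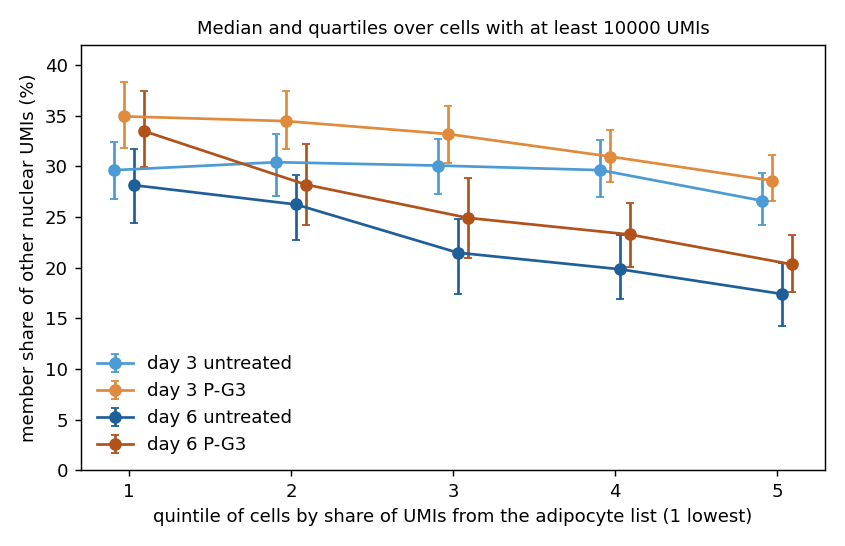
Member share of nuclear UMIs outside the adipocyte list (%), by quintile of cells ranked within each library on the share of adipocyte-list UMIs, for cells with at least 10000 UMIs. Points are medians and bars quartiles, and on day 6 the share goes from 28.1% to 17.4% untreated and from 33.5% to 20.3% with P-G3.

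Other properties of the cells moved along this ranking. Median UMIs per cell were 33786 in the lowest and 66331 in the highest quintile of day 6 untreated, and 32834 and 64878.5 with P-G3. Ranked by the preadipocyte list, the day 6 medians went the other way, from 16.2% to 27.6% untreated and from 18.8% to 32.9% with P-G3. Ranked by mitochondrial RNA they went from 25.6% to 16.2% and from 28.3% to 19.9%, and ranked by dividing-cell genes they lay between 20.7% and 23.1% untreated and between 23.7% and 25.5% with P-G3. The part of depth and mitochondrial RNA in the result was not tested.

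Member by member, the top quintile of day 6 untreated cells had 73 of 80 members called lower than in the bottom quintile and 3 higher, against 25.5% and 40.1% of genes tested. The median was -0.71 for members and 0.16 for all genes. With P-G3 on day 6, 74 were lower and 1 higher, against 19.4% and 42.2%, with medians of -0.69 and 0.21. On day 3 untreated, 12 were lower and 4 higher, against 25.5% and 36.5%, and with P-G3 33 were lower and 3 higher, against 24.4% and 44.0%. Rps27 went from 2551 to 992 CPM of nuclear UMIs outside the list on day 6 untreated (-1.36), and Rps4x from 4874 to 1969 (-1.31). Rpl38, level between the untreated libraries of days 3 and 6, went from 3052 to 1669.5 CPM between these quintiles (-0.87).

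The 3 members higher in the top quintile of day 6 untreated were Rpl9 (3845 to 4973 CPM, 0.37), Rps27l (589 to 771, 0.39) and Rpl7l1 (108 to 163, 0.58). Rpl9 was also the member higher with P-G3, at 0.34. Within cells of 1 library, then, Rps27l was 18.7% of its pair with Rps27 in the lowest and 43.7% in the highest quintile of day 6 untreated, and 23.1% and 40.4% with P-G3. Over all kept cells its share was 31.7% and 32.6%. For Rpl22l1 the same shares were 34.4% and 45.3% untreated and 37.0% and 44.2% with P-G3.

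Cells of similar depth were compared next. In cells with 20000 to 40000 UMIs the median member share of nuclear UMIs was 27.4%, 29.9%, 34.3%, 25.7% and 30.3%. Between 40000 and 80000 UMIs it was 27.3%, 28.2%, 30.7%, 20.7% and 22.9%. In both ranges P-G3 was above untreated on the same day, and day 6 untreated was the lowest of the 5 libraries. The distance between days was not the same in both: at 20000 to 40000 UMIs day 6 with P-G3 was above day 0 and day 3 untreated, and at 40000 to 80000 UMIs it was below them. In cells with 500 to 2000 UMIs the day 3 medians were in the other order, at 23.5% untreated and 23.1% with P-G3.

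**Figure D5:**
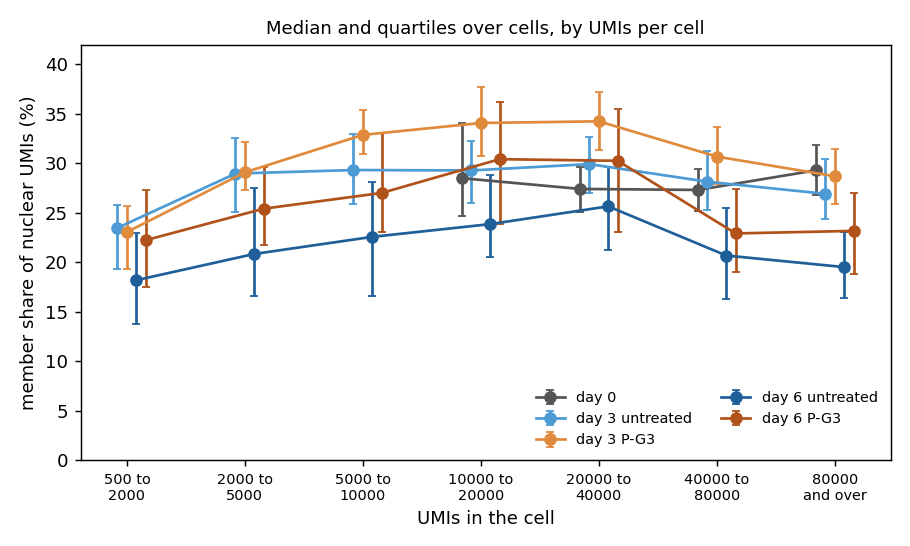
Member share of nuclear UMIs (%) by range of UMIs per cell and library, for ranges with at least 20 cells. Points are medians and bars quartiles, and at 20000 to 40000 UMIs the medians are 29.9% and 34.3% on day 3 and 25.7% and 30.3% on day 6, untreated and with P-G3.

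Other genes of the ribosome and its making were set beside the family. Fau and Rpl36al, ribosomal protein genes whose symbols fall outside the rule, and Rack1, a scaffold on the small subunit, had log2 ratios of -0.09, -0.07 and -0.33 from day 3 to day 6 untreated, and 0.28, 0.14 and 0.27 with P-G3 on day 6. Of the mitochondrial ribosomal protein genes, 23 of 76 measured were higher and 3 lower from day 3 to day 6 (median 0.21), so the share called higher was close to the 30.8% of all genes and the share called lower was under the 20.9%. With P-G3 20 of 78 were higher on day 3 and 32 on day 6, beside 6.51% and 9.40% of all genes, and none was lower (medians 0.20 and 0.29). With the length trend removed 25 and 35 were higher, beside 11.5% and 16.5% of all genes. None was lower, beside 11.1% and 14.4% (medians 0.20 and 0.25). The medians of the cytosolic members were then 0.03 and 0.06. The extremes from day 3 to day 6 were Mrps10 (0.72) and Mrpl44 (0.61) at the top and Mrpl18 (-0.40) and Mrps6 (-0.39) at the bottom.

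The counts of the lists that follow stand beside the same shares of all genes: 21.4% lower and 26.0% higher from day 0 to day 3, 20.9% and 30.8% from day 3 to day 6, and 44.2% and 9.40% for P-G3 on day 6. Of 41 translation factors and related genes, 15 were lower and 5 higher from day 3 to day 6 untreated (median -0.20). The histone chaperone family gene Nap1l1 (-0.91) and the nucleolar chaperone Npm1 (-0.76) were lowest, and the initiation factor genes Eif2s2 (0.76) and Eif3c (0.51) highest. With P-G3 on day 6, 7 were higher and 9 lower (median 0.07), from Eif4g1 (-0.69) and Eif4g2 (-0.59) to Eif3k (0.44) and Eif3m (0.52). With the length trend removed 14 were higher and none lower (median 0.22), beside 16.5% and 14.4% of all genes. Of 51 measured ribosome biogenesis genes, 17 were lower and 2 higher from day 0 to day 3 (median -0.23), with Eif6 (-0.89) and Nop58 (-0.83) lowest and Rcl1 (0.53) and Imp3 (0.34) highest. From day 3 to day 6, 6 were lower and 4 higher (median 0.03), with the rRNA methyltransferase gene Fbl (-0.71) and Grwd1 (-0.55) at the bottom and Rcl1 (0.76) and Eif6 (0.45) at the top.

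RNA polymerase I genes and their factors had 3 of 12 lower, close to the share of all genes, and 2 higher from day 3 to day 6 (median -0.22), from Taf1d (-0.58) and Cd3eap (-0.45) to Polr2l (0.36) and Polr2k (0.39), subunits shared with the other nuclear polymerases. With P-G3 on day 6, Ubtf, which opens rDNA for transcription, was at -0.97 and Rrn3 at -0.61, and Polr2k (0.21) and Polr1c (0.32) were highest, with 1 gene higher and 3 lower. With the length trend removed 1 was lower (Ubtf at -0.47) and 1 higher (Twistnb at 0.66), beside 14.4% and 16.5% of all genes. Rrn3 was then at -0.18. Of 18 measured regulators of ribosomal protein mRNAs, 7 were higher and 1 lower from day 3 to day 6. Highest were Eif4ebp1, the mTOR-controlled repressor of cap-dependent translation (333 to 760 CPM, 1.19), and Sesn2 (0.98), and lowest were Sesn3 (-0.62) and Rps6kb1 (-0.13). With P-G3 on day 6, 11 were lower and none higher, with Sesn3 (-1.06) and Sp1 (-0.92) lowest and Eif4ebp1 (0.29) and Ddit4 (0.15) highest. With the length trend removed 3 were lower (Akt1s1 at -0.55, Sesn3 at -0.34 and Sesn2 at -0.33) and 3 higher (Mtor at 0.44, Eif4ebp1 at 0.37 and Eif4ebp2 at 0.34), and Sp1 was at -0.30. Among 13 measured host genes of small nucleolar RNAs, 5 were lower and 2 higher from day 3 to day 6, from Snhg4 (65.3 to 22.4 CPM) and Snhg9 (-1.48) to Snhg6 (0.51) and Snhg18 (0.89).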

How the data were processed

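The authors deposited raw UMI counts for each library as a matrix of genes by barcodes, not normalized, per the file headers and values. The submitters' processing notes name Cell Ranger 3.1.0 and GRCm38, while the matrix headers name version 5.0.1, and which made the matrices is not known. Their annotation release is not given in the sources used here. The chemistry was Chromium 3' v2, per the labels' protocols, which was not checked against the barcodes.

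Barcodes with at least 500 genes and at most 20% mitochondrial UMIs were kept. No doublets were called. Dropping the 5% of cells richest in UMIs served as an alternative. UMIs were summed over kept cells and scaled to CPM of all UMIs. Ratios are on the log2 scale with a pseudocount of 1 CPM, so differences of low genes are understated. A gene entered a comparison when 1 of its libraries reached 20 CPM, and was called at a log2 ratio of 0.32 or more in size. Intervals are 95%, exact Poisson for levels and exact Clopper-Pearson for shares, and cover counting error only. Floors are 3 counts. With 1 library per group no test was made, and nothing in the labels gives replicate cultures.

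The named members are the 6 with the highest mean level, the 5 highest and 5 lowest ratios of each comparison, and set paralog pairs, stalk proteins and Rps6, Rpl5, Rpl11 and Rpsa. Of the other lists, the 2 highest and 2 lowest ratios are named in the comparisons described, and a few others were named after their values were seen. A few genes that these rules name are not reported here. Members in cell rankings were chosen after their values were seen. The members and lists were chosen with earlier results of these data known. Coding length came from principal transcripts of GENCODE vM21 (GRCm38), near-identical copies from BLAST 2.17.0 of the last 300 bases of transcripts, and promoter windows from RefSeq. Python 3.11.15, numpy 2.4.6, scipy 1.17.1, pandas 2.3.3 and edgeR 4.0.16 (TMM scaling only) in R 4.3.3 were used. The ratio step was tested on simulated counts. Alternatives were 3 other scalings, other cell filters, pseudocounts of 0.1 and 5 CPM, filters on low values, removal of a length trend over 20 bins, equal weight per cell and a 1.5-fold call. The restriction of ranked cells to at least 10000 UMIs was chosen after seeing the data.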

Additional observations from a re-analysis of the deposited data

Results flagged for a closer look

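Rps21 and Rpl38 had ratios of opposite sign with P-G3 on the 2 days. For Rps21 the log2 ratio to the untreated library was 0.16 on day 3 and -0.10 on day 6, and for Rpl38 it was 0.11 on day 3 and -0.19 on day 6. Rpl38 also differed in sign over time, with a ratio of day 6 to day 3 of 0.14 untreated and -0.17 with P-G3. None of these values was called, each rests on 1 library per group, and the difference between the days or between the treatments was not tested. With TMM scaling the median of all genes for P-G3 on day 6 was 0.12 in place of -0.25, a shift larger than the 2 negative values of that day, so their sign depends on scaling. With the length trend removed, Rpl38 with P-G3 was at -0.01 on day 3 and -0.35 on day 6, the latter called lower. Rps21 was then at 0.04 and -0.26.

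Barcodes that were not kept on day 6 carried member UMIs as well. Their member share was 8.82% untreated and 11.7% with P-G3, over 2814 and 2173 barcodes, below the 19.7% and 22.7% of the kept cells.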

How the results depend on the processing

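No paired analysis was possible because each group is 1 library. The count of members called from day 0 to day 3 was 7 with TMM and 12 with median-of-ratios scaling, where lower members became the majority, 7 with the length trend removed and 1 at 1.5-fold. A 1.5-fold call left 20 members from day 3 to day 6 untreated, 23 from day 0 to day 6, 14 from day 3 to day 6 with P-G3, and 0 for P-G3 on either day. For P-G3 on day 3 the count was 55 with TMM, 66 with median-of-ratios scaling, 3 without the length trend and 10 with equal weight per cell, and on day 6 it was 72, 75 and 8 under the first 3 of these. From day 3 to day 6 with P-G3 it was 28 with median-of-ratios scaling. The share of all genes was not counted at 1.5-fold or with equal weight per cell. Nor was it counted for the length trend from day 0 to day 3, or for median-of-ratios scaling from day 3 to day 6 with P-G3. Those counts show the dependence on the setting and not a difference from all genes. The cause of these shifts was not tested.

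Member shares in the order of the 5 libraries were 27.8%, 28.7%, 31.2%, 21.2% and 24.1% without mitochondrial genes, 26.9%, 26.9%, 29.3%, 19.2% and 22.4% with all barcodes, 26.6%, 27.1%, 29.5%, 19.9% and 22.9% without the 5% of cells with most UMIs, and 26.7%, 27.2%, 30.3%, 19.8% and 23.4% with equal weight per cell. In cells with at least 10000 UMIs they were 29.3% on day 3 with P-G3 and 19.7% (untreated) and 22.6% (P-G3) on day 6. Median ratios of members lay between -0.51 and -0.45 from day 3 to day 6 untreated, between 0.03 and 0.39 for P-G3 on day 3 and between 0.06 and 0.60 for P-G3 on day 6. Depth does not limit the abundant members, while Rpl3l, Rpl10l and Rpl39l are at or near the floor.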
